A study of Homo sapiens with 4 samples.

Results

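The 19p12 zinc finger cluster is the stretch of human chromosome 19 next to the centromere on the short arm, chr19:19700000-24680000 in hg19 (GRCh37). Its members were the H4K20me3 regions whose midpoint lay in that window, 1450 of the 57082 regions in the 3 deposited lists. Of these, 49 were peaks of proliferating cells, 980 were peaks of senescent cells and 421 were regions that differed between the states by DiffBind, a program that compares ChIP-seq counts over regions. The label matched the annotation, since 37 of the 44 coding genes in the window carried a zinc finger gene symbol. The window spanned 4.98 Mb, of which 4.88 Mb is sequenced in this build.

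IMR90, a fibroblast line from human fetal lung, was profiled by ChIP-seq for H4K20me3 at population doubling 32, when the cells were proliferating (PRO), and at population doubling 86, when they were in replicative senescence (RS). Senescence here is the lasting arrest reached by repeated division in culture. Each state had 2 samples, one for each of 2 different H4K20me3 antibodies, and the labels do not say whether these came from separate cultures. The deposited peak list of a state holds the stretches called with both antibodies, and the DiffBind list gives no direction of change.

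Because each state is therefore 1 list of positions, no region has a value per sample, there is no replicate error and no test between the states was possible. Read depth is not given in the lists, the read numbers per library in the study's supplement were not used here, and how far depth or the peak threshold set the number of peaks in each state was not tested. Intervals given below are exact binomial 95% intervals that cover counting error only, and they treat genes or peaks as independent, which neighbours in a cluster are not.

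H4K20me3 is trimethylation of lysine 20 on histone H4, a mark of constitutive heterochromatin that is laid down mainly by the SUV420H enzymes, usually where H3K9me3 is already present. KRAB zinc finger genes encode DNA-binding repressors made of a KRAB domain, which recruits TRIM28 and through it heterochromatin enzymes, and a long row of C2H2 zinc fingers. They arose by tandem duplication and sit in clusters, with short exons for the KRAB domain first and a single large exon for the fingers last. ZNF91 and ZNF93 in this cluster are known repressors of SVA and LINE-1 retrotransposons.

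Zinc finger units repeat many times within the coding sequence of these genes, and both covered and uncovered units are shown because the same gene could hold both. Each is 84 bases of the GRCh37 sequence, printed in the direction of the gene, 28 codons from the first cysteine of a finger, and the first of its kind found in the gene, with the codons of the linker to the next finger in capitals.
ZNF14, inside an RS peak, chr19:19822914-19822997, minus strand: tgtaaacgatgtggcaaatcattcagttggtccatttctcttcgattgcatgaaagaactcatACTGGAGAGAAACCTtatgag
ZNF91, inside an RS peak, chr19:23543300-23543383, minus strand: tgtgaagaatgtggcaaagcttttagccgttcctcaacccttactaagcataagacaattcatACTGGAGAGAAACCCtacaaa
ZNF91, outside RS peaks, chr19:23544896-23544979, minus strand: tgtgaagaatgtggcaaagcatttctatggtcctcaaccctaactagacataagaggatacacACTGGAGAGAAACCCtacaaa
ZNF85, outside RS peaks, chr19:21131930-21132013, plus strand: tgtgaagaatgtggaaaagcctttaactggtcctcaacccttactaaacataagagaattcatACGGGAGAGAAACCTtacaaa

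In senescent cells H4K20me3 peaks covered a far larger part of the cluster than in proliferating cells. The 49 PRO peaks covered 38449 bases, or 0.788% of the sequenced window. The 980 RS peaks covered 23.4%, which is 29.7 times as many bases. Over the whole genome the same ratio was 11.1. With regions under 1000 bp left out, the ratio in the cluster was 51.4. DiffBind regions covered 16.6% of the window.

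The cluster stood above the genome in every list, and most in the RS list. It makes up 0.171% of the sequenced genome but held 1.12% of the bases in PRO peaks, 3.00% of those in RS peaks and 2.34% of those in DiffBind regions. Its share covered was 6.56 times the genome's share for PRO peaks, 17.6 times for RS peaks and 13.7 times for DiffBind regions.

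Individual peaks differed less than their number. PRO peaks had a median length of 801 bp and a mean of 785 ± 591 bp (SD, n = 49 peaks), with the longest at 3401 bp. RS peaks had a median of 1001 bp and a mean of 1167 ± 975 bp (SD, n = 980 peaks), and the longest reached 7601 bp. RS peaks lay close together, with a median gap of 1199 bp to the next peak, and 48.4% of the gaps were under 1000 bp. The median gap between PRO peaks was 48899 bp. RS peaks less than 1000 bp apart formed 506 runs, the longest of 39601 bp.

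**Figure D1:**
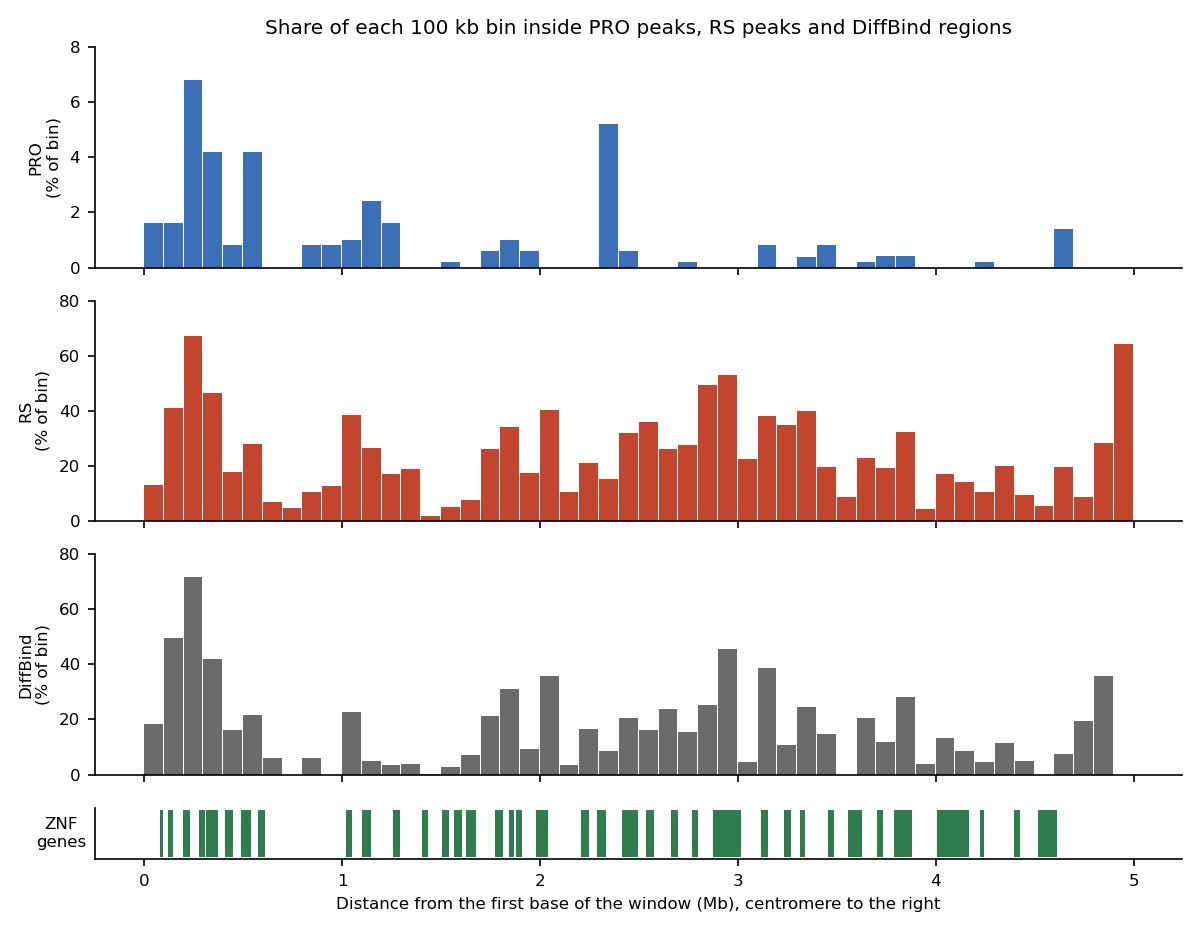
Bars give the percent of the sequenced bases of each 100 kb bin that lie in PRO peaks (top, scale to 8%), RS peaks and DiffBind regions (scales to 80%), against distance from the first base of the window in Mb. Green blocks mark the 37 coding zinc finger genes. RS coverage is above 0 in every bin, whereas PRO coverage is mostly in the first 0.6 Mb and near 2.3 Mb.

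RS coverage was uneven along the cluster, as the plot of 100 kb bins shows. Among the 49 bins with at least 50 kb of sequence, the RS share ran from 2.00% to 67.0% with a median of 19.6%, and none was at 0. PRO peaks were missing from 22 of these bins, and the highest PRO share was 6.81%. The highest bin in both states was the one that holds ZNF506 and most of ZNF253. Low RS bins held ZNF85 (2.00%), ZNF430 with ZNF714 (5.21%), and the gene-poor stretches without coding zinc finger genes that start at 20400000 (4.61%) and 23600000 (4.40%).

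PRO coverage was concentrated away from the centromere, and RS coverage was similar on both sides. The side of the window nearer the short-arm end, up to its midpoint, held 38 of the 49 PRO peaks and 33638 PRO bases, and the side nearer the centromere held 11 peaks and 4811 bases. RS peaks covered 22.6% of the first side and 24.2% of the second. The ratio of RS to PRO bases was thus 16.4 on the first side and 123 on the second.

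The last 31783 sequenced bases before the centromere gap were 64.1% covered by RS peaks and held no PRO base and no DiffBind region. In the 319.0 kb between ZNF254 and that gap, 12.0% of positions began a 75-base sequence that occurs more than once in the genome, against 4.90% for the whole window. Whether reads there were placed uniquely was not tested.

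Zinc finger gene bodies were covered more than the rest of the cluster in both states. They make up 35.9% of the sequenced window. PRO peaks covered 1.31% of them and 0.618% of the bases between all annotated genes, a ratio of 2.12. RS peaks covered 31.6% of the bodies and 20.2% of the bases between genes, a ratio of 1.57. DiffBind regions covered 28.2% of the bodies and 10.2% between genes, a ratio of 2.76.

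Other genes in the window lay lower. RS peaks covered 15.4% of pseudogene bases outside coding genes, 19.04% of other non-coding genes and 10.3% of other coding gene bodies. In absolute terms RS coverage between genes was still large, at 418306 bases, 36.6% of all RS bases in the cluster.

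Each of the 37 coding zinc finger genes had RS coverage, 100% with an interval of 90.5% to 100%. Of all 20163 coding genes, 21% had at least 1 base in an RS peak. Of the 13147 coding genes at least as long as the shortest zinc finger gene here, 14714 bp, it was 28.5%, and of the 529 coding zinc finger genes elsewhere it was 62.0%.

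A PRO peak touched 17 of the 37 genes, 45.9% with an interval of 29.5% to 63.1%, while 3.97% of all coding genes had one. Among coding genes of at least that length 5.00% had a PRO peak, and among coding zinc finger genes elsewhere 28.7%. The count depends on short peaks, since peaks of at least 1000 bp touched 13.5% of the 37 genes, and PRO peaks without a repeated 75-base sequence touched 27.03%. At least 10% of the body was covered in 2.70% of them in PRO and in 89.2% in RS. DiffBind regions touched 36 of the 37, all but ZNF85, against 18.3% of all coding genes.

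**Figure D2:**
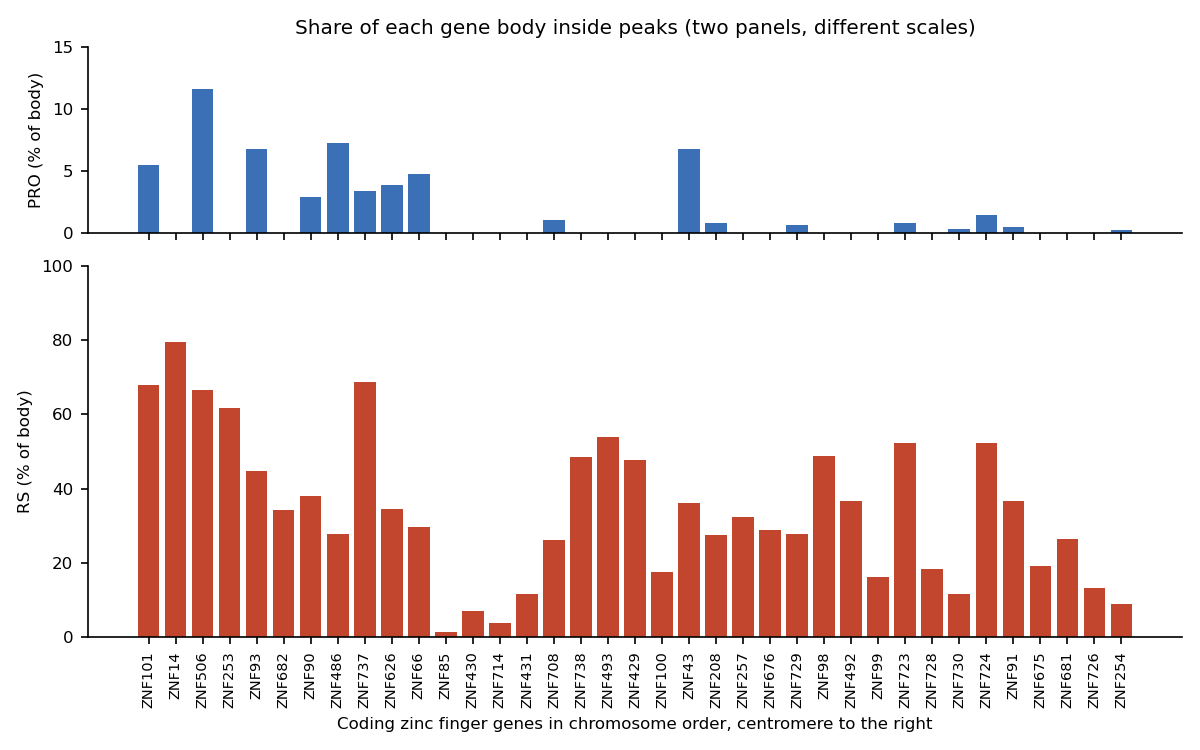
Bars give the percent of each gene body inside PRO peaks (top, scale to 15%) and RS peaks (bottom, scale to 100%) for the 37 coding zinc finger genes in chromosome order, without error bars since each state is 1 list. ZNF14 is highest in RS at 79.5% and ZNF85 lowest at 1.46%.

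The share of the body covered in RS was higher than in PRO in each of the 37 genes. It ran from 1.46% to 79.5%, with a mean of 34.2% ± 19.9 (SD, n = 37 genes) and a median of 32.4%. In PRO the mean was 1.57% ± 2.78 (SD, n = 37 genes) and the median was 0. More than 50% of the body was covered in 8 genes in RS and less than 10% in 4.

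Among the 10 genes with the largest RS share, 4 stood side by side at the short-arm end of the cluster. ZNF101 was covered over 68.0% of its body in RS and 5.44% in PRO. ZNF14 was covered over 79.5% in RS and had no PRO base. ZNF506 reached 66.6% in RS and had the largest PRO share of the cluster, 11.6%. ZNF253 reached 61.6% in RS with no PRO base in the body.

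The other 6 were spread through the cluster. ZNF737 reached 68.7% in RS and 3.34% in PRO. ZNF493, at 53.9%, and its neighbour ZNF738, at 48.6%, had no PRO base in the body. ZNF723 and ZNF724 were close to each other at 52.3% and 52.1%, with PRO shares of 0.762% and 1.39%. ZNF98, a gene of 141467 bp, was 48.9% covered by 50 RS peaks and by no PRO peak.

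Besides ZNF506 and ZNF101, the largest PRO shares were at ZNF486 (7.22%), ZNF43 (6.79%) and ZNF93 (6.72%). Their RS shares were 27.7%, 36.1% and 44.8%. ZNF93, the LINE-1 repressor, had 4 PRO peaks, the most of any gene in the cluster, and 24 RS peaks. In ZNF486 the second longest PRO peak, 2401 bp, overlapped an RS peak over 8.37% of its length. The third longest, of 1801 bp at the start of ZNF43, overlapped no RS peak.

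ZNF91, the SVA repressor, was 36.7% covered in RS and 0.443% in PRO. Next to it, ZNF675, whose protein was described as an inhibitor of TRAF6 signalling, was 19.2% covered in RS and had no PRO peak. Of the other genes on the fixed list, ZNF208 was 27.4% covered in RS, ZNF257 32.4%, ZNF676 28.9%, ZNF100 17.4% and ZNF99 16.1%. ZNF208 alone of these 5 had a PRO peak, over 0.771% of the body.

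The lowest genes were neighbours. ZNF85 was 1.46% covered, by 1 RS peak, ZNF430 7.11%, ZNF714 3.71% and ZNF431 11.5%, and they follow one another on the chromosome with no PRO base in any body. ZNF254, the last gene before the centromere, was 8.91% covered in RS. A PRO peak of 201 bp lay 864 bp before the start of ZNF714 and overlapped no RS peak.

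The 4 coding genes at the short-arm edge of the window that are not zinc finger genes had no base of their bodies in any list. They are PBX4, a homeobox gene, LPAR2, a receptor for lysophosphatidic acid, GMIP, and ATP13A1, an ATPase of the endoplasmic reticulum. A PRO peak of 801 bp lay outside ATP13A1 but within 3000 bp of its start, in the 5.12 kb between it and ZNF101. That stretch had the highest PRO share of any between neighbouring coding genes, 15.6%, with no RS base and 15.7% in DiffBind regions. The PRO peak itself overlapped no DiffBind region. Those DiffBind bases were the edge of a region of 10601 bp that starts at 19778801 and reaches into ZNF101. Of the 3 other coding genes, RPSA2 was 19.2% covered in RS, and the unnamed ENSG00000283201 and ENSG00000269237 were 26.9% and 21.8% covered. The first of these overlaps ZNF724 and the second ZNF493, whose bases they share. Genes were classed by symbol alone, and the translated coding sequence of ENSG00000283201 held 9 fingers.

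Of the 119 pseudogenes in the window, 6 had a symbol starting with ZNF, and none of these 6 had a PRO base. Zinc finger pseudogenes under other names were not looked for. RS peaks covered 73.8% of ZNF56P, 47.3% of ZNF92P2, 15.8% of ZNF209P and 5.23% of ZNF826P. ZNF849P and ZNF725P had no base in any list.

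Coverage of a gene body went with that of its surroundings. Over the 37 genes, the RS share of the body and the RS share of the bases outside coding genes within 20 kb of it had a Spearman coefficient of 0.63 and a Pearson r of 0.65, as a description, since both come from the same libraries. In 22 of the 37 genes the body was covered more than these flanks and in 15 less. ZNF91 was covered over 36.7% of the body and 3.00% of its flanks, whereas ZNF99 was covered over 16.1% of the body and 39.7% of its flanks. Finger number bore little relation to the RS share of the body (Spearman coefficient of -0.01 over 37 genes, with 5 to 36 fingers a gene).

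Between neighbouring coding genes there were 41 stretches of at least 1000 sequenced bases. RS peaks covered between 0 and 72.0% of them, with a median of 16.1%, and 5 had no RS base. PRO peaks had bases in 17 and none in 24. ZNF101 and ZNF14 enclosed the stretch with the highest RS share, 72.0% of 26.96 kb, and ZNF506 and ZNF253 enclosed one with 67.9% of 44.1 kb. ZNF729 and ZNF98 enclosed 73.8 kb with 52.3%, and ZNF492 and ZNF99 enclosed 84.5 kb with 51.9%, neither with a PRO base. By contrast, the 38.5 kb between ZNF682 and ZNF90 were 1.04% covered in RS and 2.08% in PRO, and the 52.0 kb between ZNF675 and ZNF681 were 0.772% covered in RS.

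Within zinc finger genes coverage was counted by part of the gene. PRO peaks covered no base of a last exon and no base of a middle exon in any of the 37 genes. They covered 2.02% of first exon bases, which is 109 bases, and 1.44% of intron and other bases. PRO peaks covered 1.31% of whole bodies, and middle exons hold 11283 bases, so few PRO bases would fall in exons by length alone. Whether PRO peaks avoid exons was not tested. RS peaks covered 28.1% of first exons, 31.2% of middle exons, 26.3% of last exons and 32.1% of introns and other bases.

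Last exons were therefore covered slightly less than the rest of the body in RS, with a ratio of 0.818. In 36 of the 37 genes this exon holds the end of the coding sequence and so the fingers. DiffBind regions covered 27.1% of last exons and 28.4% of the rest of the body, but 31.9% of the coding part of last exons. RS peaks covered 21.8% of that coding part and 29.3% of the remainder. They had bases in the last exon of 27 genes and none in that of 10. At ZNF101 they covered 92.5% of the last exon and at ZNF14 80.2%, whereas ZNF729, ZNF98 and ZNF254 had no covered base there. In the last coding exon of ZNF98, 54.4% of positions began a 75-base sequence found more than once in the genome. The median over the 37 genes was 0.62%. Whether reads in that exon were placed uniquely was not tested.

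Of the 534 finger units found by translating the coding sequences, 128 lay wholly in RS peaks, 23.97%, and 385 lay outside them. None held a PRO base, but PRO peaks covered 1.31% of the gene bodies, so few units would be met by length alone. All 13 fingers of ZNF737 and all 9 of ZNF101 were inside RS peaks, but none of the 34 of ZNF729 or the 15 of ZNF85. ZNF91 had 12 of 31 inside and 18 outside, among them the units printed above.

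**Figure D3:**
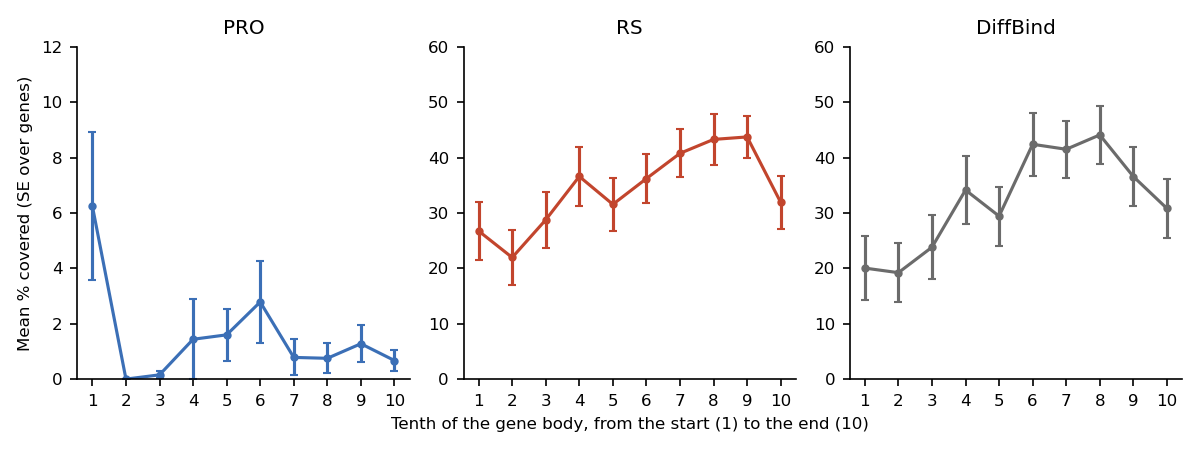
Points give the mean percent of 10 equal parts of the gene body, from start (1) to end (10), inside PRO peaks (scale to 12%), RS peaks and DiffBind regions (scales to 60%), and bars give the standard error over the 37 coding zinc finger genes. The bars treat neighbouring genes of 1 list as independent, which they are not, and show no replicate error. PRO coverage is highest in part 1 at 6.25%, whereas RS coverage is highest in part 9 at 43.8%.

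Along the gene body, mean RS coverage was higher towards the 3′ end and mean PRO coverage was highest at the start. With each body cut into 10 equal parts, mean RS coverage was 26.8% ± 32.2 (SD, n = 37 genes) in part 1, 22.0% ± 29.8 in part 2, 43.8% ± 23.1 in part 9 and 31.9% ± 28.8 in part 10. The SD over genes was above the mean in parts 1 and 2 and below it in parts 9 and 10. In all, 58.0% of RS bases in the bodies lay on the 3′ side of the midpoint. PRO coverage was 6.25% ± 16.2 in part 1 and 0 in part 2.

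Around the starts of the genes the PRO peaks had their highest density. A PRO peak lay within 3000 bp of the start in 14 of the 37 genes, 37.8% with an interval of 22.5% to 55.2%, against 2.08% of all coding genes. RS peaks lay there in 18 of the 37 genes, against 5.26% of all coding genes. For coding zinc finger genes elsewhere the shares were 13.8% and 29.7%.

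**Figure D4:**
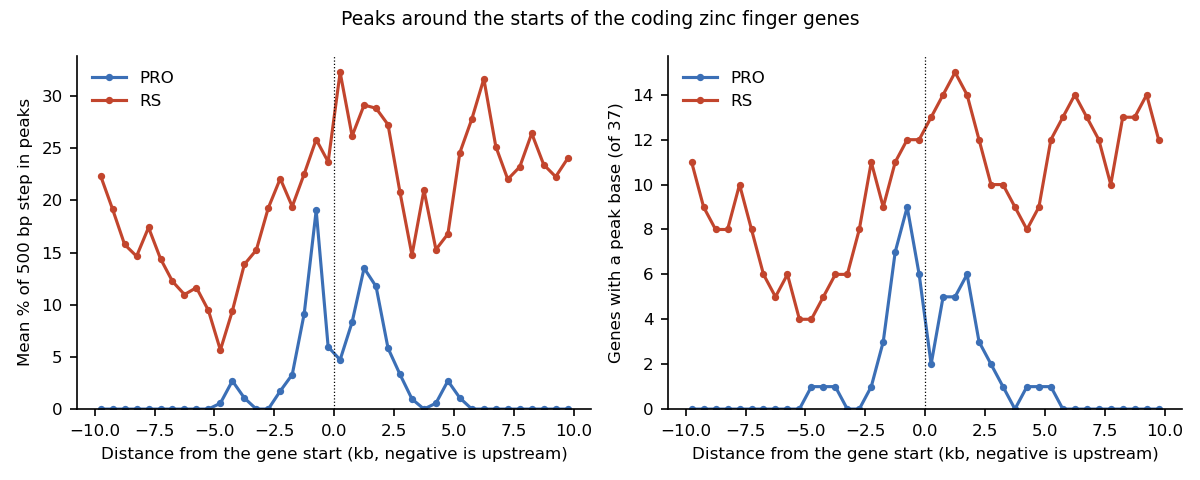
Left, mean percent of each 500 bp step inside PRO and RS peaks against distance from the annotated start of the 37 coding zinc finger genes in kb, with negative values upstream. Right, the number of genes with a peak base in the step. PRO coverage has one maximum at 19.05% upstream of the start and another at 13.5% downstream.

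In steps of 500 bp, mean PRO coverage was 19.05% between 1000 and 500 bp upstream of the start, with a base in 9 genes. It was 4.72% in the first 500 bp of the gene and 13.5% between 1000 and 1500 bp downstream. Further than 6 kb from the start, up to the 10 kb plotted, it was 0. RS coverage was 25.8%, 32.3% and 29.2% in the same 3 steps and lowest, 5.66%, between 5000 and 4500 bp upstream.

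Of the 49 PRO peaks, 17 had their midpoint within 3000 bp of the start of a zinc finger gene, 11 upstream and 6 downstream. Another 12 lay in a last intron, from 771 bp before the last exon in ZNF729 to 11344 bp before it in ZNF626. Other distances were 1354 bp in ZNF254, 2218 bp in ZNF723, 3971 bp in ZNF730, 6673 bp in ZNF91 and 10431 bp in ZNF66. The share of the window in last introns was not counted, so whether 12 is more than their length would give was not tested. Both kinds together were 29 of the 49. Peaks that touched no zinc finger body numbered 22.

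Counting any shared base, most PRO peaks lay over RS peaks. Of the 49, 41 overlapped an RS peak by at least 1 base, 83.7% with an interval of 70.3% to 92.7%. Over the whole series this share was 54.8%, but RS peaks covered 23.4% of the window and 1.33% of the genome. How far that density set the difference was not tested. The share in the cluster was 79.2% with 1-base peaks left out and 36.7% when at least 50% of both regions had to be shared. It was 47.6% of 21 PRO peaks when regions with a 75-base sequence found elsewhere were left out. RS peaks covered 73.5% of the PRO bases. Among the 17 PRO peaks near gene starts 13 overlapped an RS peak, and among the other 32 it was 28. The 8 without an RS peak had a median length of 501 bp, against 801 bp for the 41 others. Beside those at ZNF43 and ZNF714, they include peaks 886 bp before the start of ZNF682 and 808 bp before that of ZNF681.

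Of the 980 RS peaks, 39 overlapped a PRO peak, 3.98%, and the same share over the whole series was not counted. The count of 39 was limited by the list of 49 PRO peaks, which covered 0.788% of the window. Over the genome PRO peaks covered 0.120%. The longest RS peaks showed both cases. At the start of ZNF506 an RS peak of 7601 bp held a PRO peak over 44.7% of its length, and a peak of 6001 bp that reaches ZNF253 held PRO bases over 16.7%. At ZNF98 RS peaks of 7601 and 6601 bp held none.

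DiffBind regions overlapped 503 of the 980 RS peaks, 51.3% with an interval of 48.1% to 54.5%, and over the whole series 44.8%. With 50% of both regions required it was 30.7%. All of these 503 peaks lay wholly inside a DiffBind region. The DiffBind regions were made from the same samples, so this overlap is not independent of the peaks. The share of RS bases that lay in DiffBind regions was 67.6% in zinc finger gene bodies and 31.9% between genes. Of the 49 PRO peaks, 13 overlapped a DiffBind region, a share not counted over the whole series. The study reports that by far most of its differential regions were more enriched in RS. Its set was larger than the list used here. That list gives no direction, so whether the mark rose or fell at these 13 cannot be read from it. Of the 421 DiffBind regions, 385 overlapped an RS peak, 91.4%, and over the whole series this share was 73.4%. RS peaks were also denser here than over the genome. The other 36 regions overlapped no peak of either state.

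Of the 5 longest DiffBind regions, 4 lay at zinc finger genes. The first, of 18001 bp at ZNF14, was 88.9% in RS peaks and 4.45% in PRO peaks. ZNF429 held the second, of 16001 bp, with 75.0% in RS peaks and no PRO base. The third, of 11401 bp, lay in no coding gene, 211230 bp from the nearest zinc finger gene, ZNF254, and was 36.9% in RS peaks. A region of 10801 bp at ZNF91 was 83.3% in RS peaks, and one of 10601 bp at ZNF101 was 56.6% in RS peaks.

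Compared with the 3 other zinc finger clusters of chromosome 19 that hold the most genes, the 19p12 cluster had the lowest RS share and the lowest PRO share. The clusters run from ZNF565 to ZNF573 with 29 coding zinc finger genes, from ZNF175 to ZNF331 with 40 and from ZNF264 to ZNF446 with 47. RS peaks covered 43.9%, 27.2% and 26.1% of them, against 23.4% here. PRO peaks covered 7.23%, 2.20% and 5.77%, against 0.788% here. The ratio of RS to PRO bases was 6.07, 12.4 and 4.52, against 29.7 here. The edges were set differently, since the other clusters end at their first and last zinc finger gene and the window was fixed. Zinc finger gene bodies made up 78.6%, 61.9% and 62.4% of the other clusters, against 35.9% here. In the ZNF565 to ZNF573 cluster, 87836 of the 118252 PRO bases lay in non-coding genes other than pseudogenes. These are descriptions of 1 list per state with no test of the differences.

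**Figure D5:**
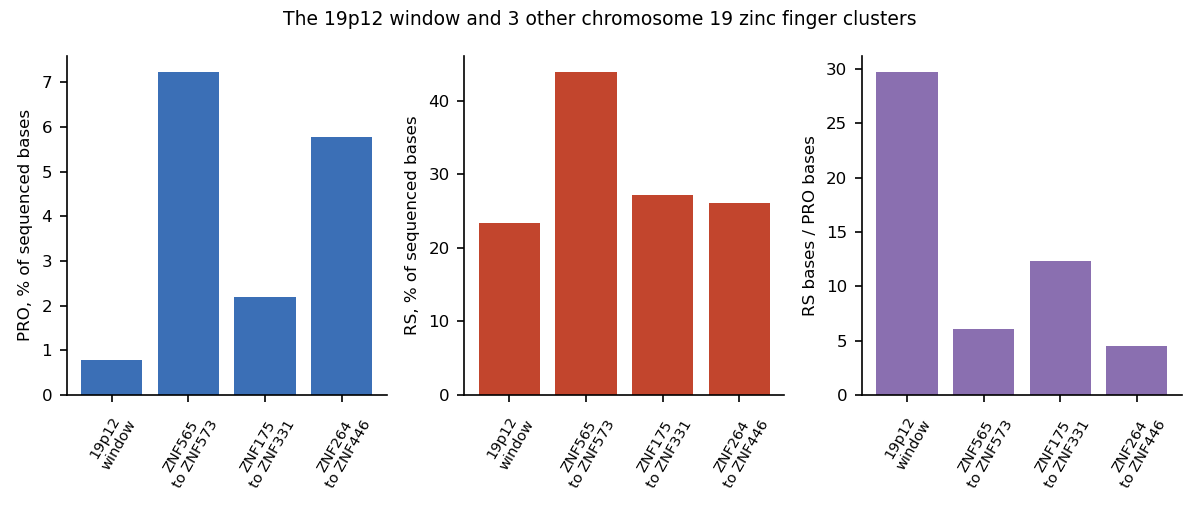
Bars give the percent of sequenced bases inside PRO peaks (left) and RS peaks (middle) and the ratio of RS to PRO bases (right) for the 19p12 window and 3 other chromosome 19 zinc finger clusters. The 19p12 window is lowest in PRO at 0.788% and highest in the ratio at 29.7, over all bases of each cluster and not its gene bodies alone.

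Over zinc finger gene bodies alone the clusters were closer in RS, at 31.6% here and 43.7%, 34.2% and 30.9% in the others. In PRO these bodies were covered over 1.31% here and 1.73%, 1.44% and 6.83% there. Within these bodies the ratio of RS to PRO bases was 24.1 here and 25.2, 23.7 and 4.53 there, so the high ratio of the window was not seen in its bodies against the first 2 of the other clusters. The ratio of RS coverage in bodies to that between genes was 1.57 here and 1.58, 1.69 and 1.68. All 37 genes here had RS coverage, as did 28 of 29, 38 of 40 and 25 of 47 in the others. Between genes, PRO peaks covered 0.618% here and 5.40%, 3.77% and 4.12% there.

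Sequence content also differed between covered and uncovered parts of the cluster. GC content was 49.6% in PRO peaks, 46.0% in RS peaks and 39.7% outside both. The letters GGAGGCTGA occurred 1.33 times per kb in PRO peaks, 0.820 in RS peaks and 0.396 outside. The linker letters GGAGAGAAA, counted on both strands, occurred 5.29 times per kb in the coding part of last exons, but 0.0260 times in PRO peaks and 0.0962 in RS peaks, against 0.135 outside both. In DiffBind regions they occurred 0.203 times per kb, more than outside the peaks. Of the 980 RS peaks, 3.16% held them, and among RS peaks of 1001 bp 0.877%, against 4.68% of 4875 stretches of that length. In RS peaks 6.98% of positions began a 75-base sequence found more than once in the genome, and outside both kinds of peak 4.26%. The part of GC content and of repeated sequence in the coverage was not tested.

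PRO peaks were richer than the window in the letters GGAGGCTGA, counted on both strands, which occur in the consensus of Alu elements. Of the 16 PRO peaks with the median length of 801 bp, 11 held these letters, 68.8%, against 29.9% of the 6093 stretches of the same length that tile the window. Among the 114 RS peaks with their median length of 1001 bp, 60 held them, 52.6%, against 35.9% of 4875 stretches. A match describes letters and does not place a repeat element, for which no annotation was used.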

How the data were processed

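The deposited lists give start and end positions only (no score), on hg19. The study's methods state that single-end reads were aligned with Bowtie2 2.1.0, that enriched domains were called per antibody with SICER 1.1 against histone H4 ChIP, and that domains of both antibodies were intersected. Differential regions came from DiffBind 1.8.3. The count model behind it is described in more than 1 way in the study, and the list is shorter than the study describes.

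Regions were assigned to the window by midpoint. Coverage was counted per base, leaving out unsequenced bases, with Python 3.11.15, numpy 2.4.6 and pysam 0.24.0 on GRCh37 and GENCODE release 44 lifted to that build, using the transcript with the longest coding sequence per gene. Genes with a ZNF, ZFP, ZSCAN or ZKSCAN symbol followed by a number counted as zinc finger genes. Overlap meant 1 shared base. Interval functions were tested on simulated data. Counts of genes and peaks were given exact binomial 95% intervals. Genes named were the 10 with the largest RS share, the 5 with the largest PRO share, any zinc finger gene without an RS peak, the 3 other coding genes with the largest RS share and 12 listed genes, and for regions the longest of each list. Some genes named beside these were chosen after their values were seen. The members, lists and comparisons were chosen with earlier results of these data known. Comparison clusters were runs of coding zinc finger genes at most 500 kb apart. Alternatives were other region filters, gene extents, window edges and overlap rules. The sequences of the PRO peaks are not reported here.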

Additional observations from a re-analysis of the deposited data

How the results depend on the processing

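All 9 main values were recomputed, each under those of 11 alternatives that apply to it, and 53 of 66 recomputed values stayed within the main value's binomial interval or, for ratios and shares of bases, within 1.5 times it. No ratio crossed 1 and the 3′ share stayed over 50%, but the PRO to RS overlap, the RS to DiffBind overlap and the share of genes with a PRO peak each crossed 50% under an alternative given here. With only regions of at least 1000 bp, the ratio of RS to PRO bases was 51.4, PRO peaks touched 13.5% of zinc finger genes, their body to between-gene ratio was 3.99, and 63.6% of PRO peaks overlapped an RS peak. Without regions that hold a repeated 75-base sequence, which left 21 PRO peaks, 436 RS peaks and 162 DiffBind regions, 27.03% of genes had a PRO peak, 47.6% of PRO peaks overlapped an RS peak and 36.5% of RS peaks overlapped a DiffBind region. Requiring 10% of the body to be covered left 89.2% of genes with RS and 2.70% with PRO coverage. With bodies extended by 2000 bp, 67.6% of genes had a PRO peak and the PRO body to between-gene ratio was 4.09. With 50% of both regions required, 36.7% of PRO peaks overlapped an RS peak and 30.7% of RS peaks a DiffBind region. No paired analysis was possible because the lists merge both antibodies into 1 list per state, and leaving out a sample was not possible for the same reason. The lists hold no read numbers, so a stretch without a peak is not shown to lack the mark.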
